A study of Mus musculus with 2 samples.

Results

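Oxidative phosphorylation (OXPHOS) subunits encoded in the nucleus were taken from the mRNA-seq count table of mouse intestinal organoids (mIOs) by symbol: every gene whose symbol starts with Nduf, Uqcr, Cox4 to Cox8 or Atp5, and the genes Sdha, Sdhb, Sdhc and Sdhd. The rule matched 100 of the 19294 listed genes. Of these, 99 had at least 10 counts in at least 1 library; Atp5k-ps1 did not. The 99 held 80 structural subunits, 8 complex I assembly factors of the Ndufaf series, the supercomplex factor Cox7a2l, 2 copies of Ndufb4 and 8 genes with a pseudogene symbol. By complex, the structural subunits were 36 of complex I, 4 of complex II, 8 of complex III, 15 of complex IV and 17 of complex V. The complex III subunit gene Cyc1 lies outside the symbol rule and is given with the other respiratory chain genes.

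The mIOs were grown in Matrigel from jejunal crypts of mice that carry the Lgr5-EGFP-IRES-creERT2 allele, in which EGFP and a tamoxifen-inducible Cre are expressed from the locus of the stem cell gene Lgr5. Both cultures carried this allele and received medium with EGF, Noggin and R-spondin. One culture was the untreated control, and the other was treated for 4 days with dextran sulfate sodium (DSS), a sulfated polymer of glucose used to damage gut epithelium; both are labelled day 4. The age of the mice and the DSS dose of the sequenced culture are not given in the sources used here. Each condition had 1 library, with 65493032 counts in the control and 59746968 in DSS, so no difference below has a replicate check and none was tested.

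The cells are labelled as intestinal stem cells, but markers of several epithelial cell types were present in both libraries. Between control and DSS, the summed level of 6 stem cell markers went from 870.1 to 140.7 CPM (counts scaled to a common library size, as defined under processing), that of 6 proliferation markers from 1270 to 239.2, that of 8 enterocyte markers from 3293 to 26965 and that of 6 goblet cell markers from 706.4 to 11154. Summed CPM went from 851.7 to 318.5 for 6 Paneth cell markers, from 745.6 to 3794 for 6 enteroendocrine markers and from 8.87 to 4.39 for 4 tuft cell markers. Few markers of other tissues were listed with at least 10 counts: 1 of 6 mesenchymal, 3 of 6 immune, 1 of 3 endothelial and 1 of 5 muscle markers. Markers that were not listed were not analysed here, so this tally does not show that they were absent. The part of these marker differences in the values below was not tested. In such bulk libraries, fewer cells of a type and less RNA per cell cannot be told apart.

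OXPHOS couples the oxidation of NADH and succinate to ATP synthesis at the inner mitochondrial membrane. Complex I (NADH dehydrogenase) and complex II (succinate dehydrogenase) pass electrons to ubiquinone, complex III passes them to cytochrome c, and complex IV (cytochrome c oxidase) passes them to oxygen; complex V (ATP synthase) uses the resulting proton gradient. Most subunits are encoded in the nucleus and imported, while a small set of hydrophobic core subunits is encoded in mitochondrial DNA, so complexes I, III, IV and V are built from the products of both genomes. In the intestine, absorptive enterocytes and crypt stem cells are both known to use mitochondrial respiration.

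Values are given as the log2 ratio of DSS over control, after scaling with TMM factors, with an exact 95% interval that covers counting error only. The median of all 17235 genes with at least 10 counts was -0.06. Scaling by total counts instead lowered every log2 ratio by 0.26, the same for all genes, so that each positive value under 0.26 given below turned negative on that scale. Positions relative to the median of all genes do not depend on the scaling.

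The nuclear structural subunits lay close to the median of all genes. Their median log2 ratio was 0.09, and 47 were above 0 and 33 below; on total counts 23 were above 0 and 57 below, with a median of -0.16. Relative to the median of all genes, 53 of the 80 lay above it and 27 below. Of the 80, 69 (86.3%) had a log2 ratio within 0.5 of 0, compared with 35.8% of all genes and 43.6% of the 8960 genes with at least 1000 counts. The interquartile range was 0.42 for the subunits and 1.51 for all genes.

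Few members passed a log2 ratio of 1 in either direction: 6 of 99, compared with 39.5% of all genes and 30.5% of those with at least 1000 counts. Of the 99, only Cox7a1 was at 1 or more, where 19.3% of all genes lay. At -1 or less there were 5 members (Cox6b2, Cox6a2, Ndufa4l2, Ndufaf5 and Ndufaf6), where 20.2% of all genes lay. Cox6b2 was the only member past 2 or -2, joined on total counts by Cox6a2 at -2.06; 6.54% of all genes were at -2 or less and 7.87% at 2 or more. The summed level of the structural subunits was 14323 CPM in control and 14478 CPM in DSS. As a share of unscaled library counts, they made up 1.57% (95% Clopper-Pearson interval 1.56 to 1.57) of the control library and 1.32% (1.32 to 1.33) of the DSS library.

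**Figure D1:**
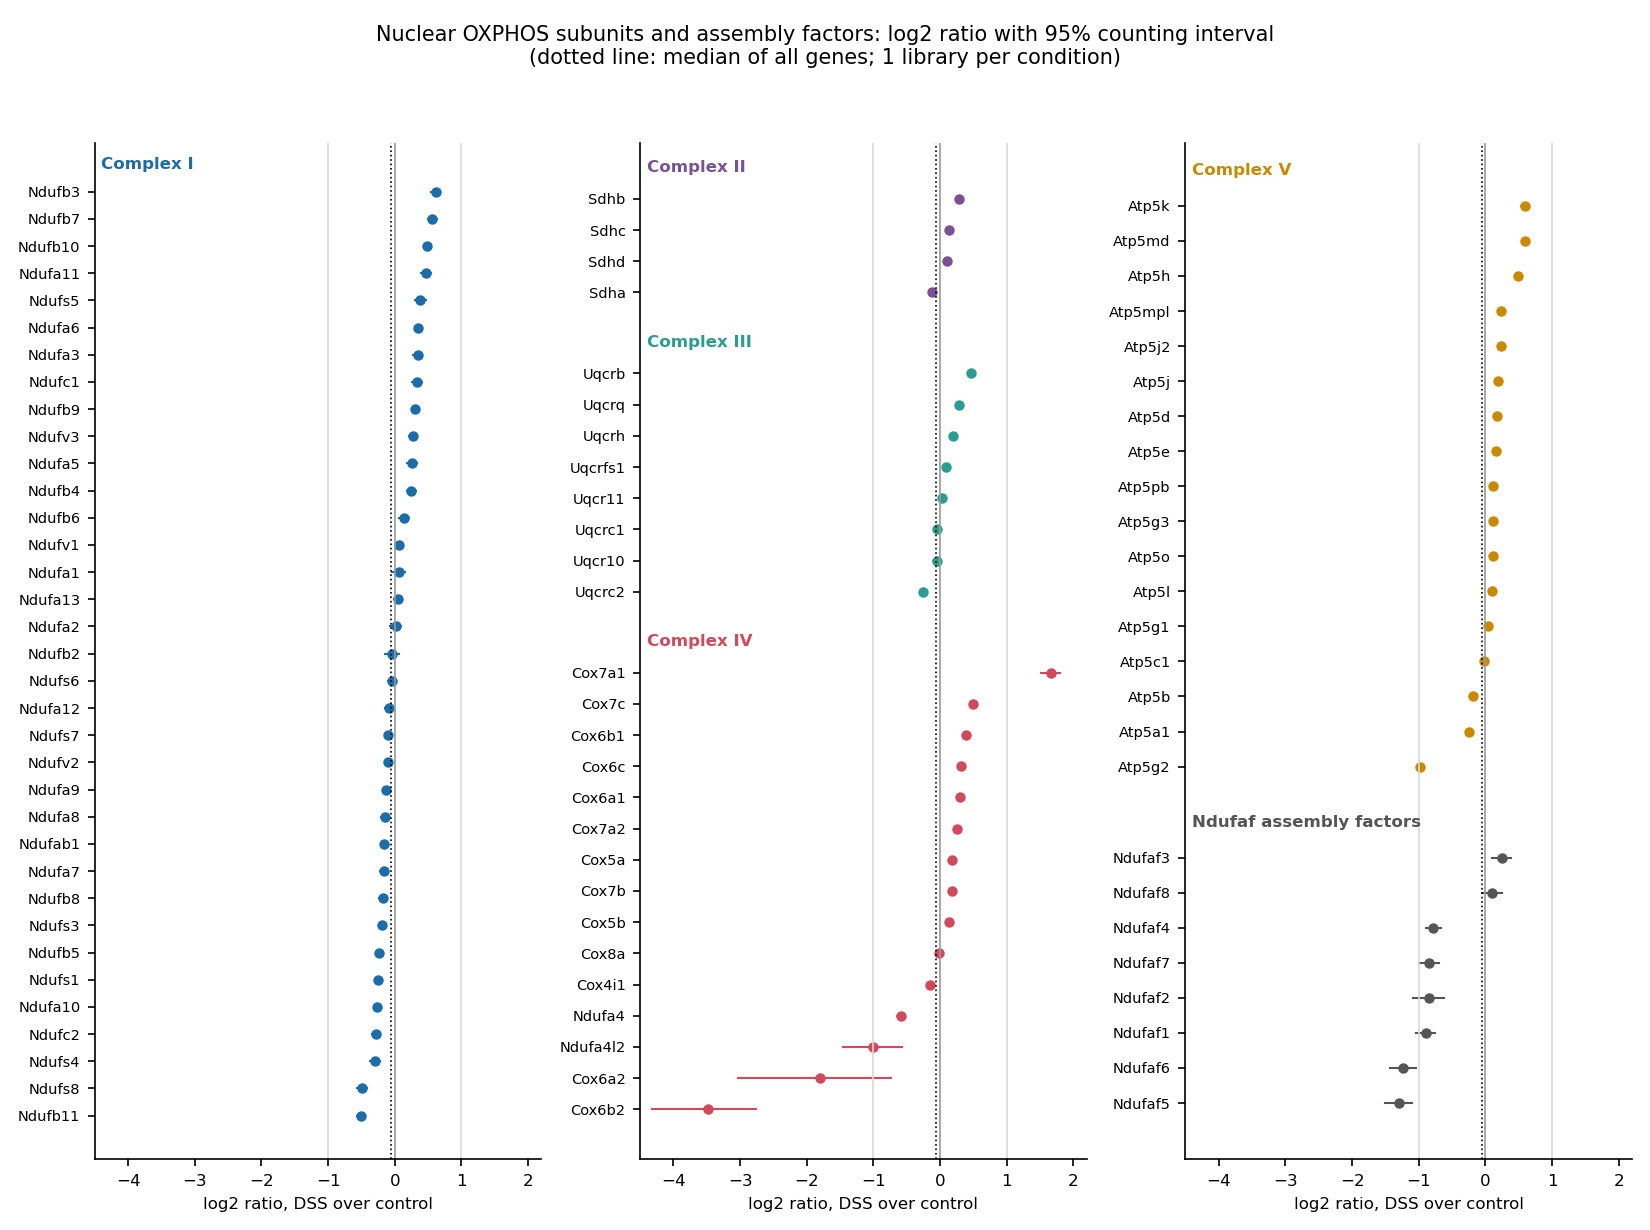
Log2 ratio of DSS over control (horizontal axis) for 79 of the 80 nuclear structural subunits by complex and for the 8 Ndufaf assembly factors; points are single genes from 1 library per condition, bars are 95% counting intervals, the dotted line is the median of all genes (-0.06) and grey lines mark -1, 0 and 1. Most subunits sit within 0.5 of 0, Cox7a1 lies at 1.66 and Cox6b2 at -3.49, and 6 of 8 assembly factors lie below 0; on total counts every point lies 0.26 lower.

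Complex I, the entry point of electrons from NADH, had a median log2 ratio of -0.04 over 36 nuclear subunits, with a range from -0.51 to 0.61. This median was 0.02 above that of all genes. Here and for the other complexes, values and ranks cover the nuclear subunits, and those encoded in mitochondrial DNA are given further below. No nuclear subunit of complex I reached 1 or -1. The 7 nuclear core subunits, which carry the flavin, the iron-sulfur clusters and the ubiquinone site, were lower. Of these, 6 were below 0, with a median of -0.19. The 7 core subunits encoded in mitochondrial DNA were all above 0, with a median of 0.87. Of the 29 accessory subunits, 16 were above 0 and 13 below, with a median of 0.05 that turned negative on total counts.

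Among the nuclear core subunits, Ndufs8, an iron-sulfur protein, had 4024 counts in control and 2197 in DSS, a log2 ratio of -0.48 (-0.56 to -0.41). Ndufs1, the largest iron-sulfur protein of the complex, had 10579 and 6798 counts and a log2 ratio of -0.25. The only nuclear core subunit above 0 was Ndufv1, the flavin-binding subunit, with 9948 and 7980 counts. Its log2 ratio of 0.07 turned negative on total counts.

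By position in the complex, the 19 nuclear subunits of the membrane arm had a median of 0.14. The 9 of the NADH-oxidizing N module had a median of -0.09 and the 7 of the ubiquinone-reducing Q module -0.13. On total counts the membrane arm's median turned negative too, while its distance to the median of all genes stayed 0.19. The 3 highest nuclear subunits of complex I were membrane arm accessory proteins. Ndufb3 had 3904 counts in control and 4561 in DSS, with a log2 ratio of 0.61 (0.55 to 0.67). Ndufb7 followed with 3225 and 3645 counts (0.57) and Ndufb10 with 6530 and 6993 counts (0.49). The lowest subunit was also in the membrane arm: Ndufb11 had 7164 and 3839 counts, a log2 ratio of -0.51 (-0.57 to -0.45). The neighbouring subunits of this arm thus did not share a single direction.

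Per kilobase of transcript, Ndufa6 was the most abundant nuclear subunit of complex I, at 339.3 CPM per kb in control and 432.0 in DSS. Ndufab1, the mitochondrial acyl carrier protein, was the lowest, at 27.4 and 24.6 CPM per kb. The level per kb depends on the transcript model taken, here the shortest one linked to the gene. Ndufb1-ps, which RefSeq lists as protein-coding despite its symbol, had 2959 counts in control and 2174 in DSS, a log2 ratio of -0.06. Ndufb4 and its copies Ndufb4b and Ndufb4c had log2 ratios of 0.25, -0.02 and 0.11, and every 50-base stretch of the Ndufb4c transcript was also found in another gene, so counts of this family could be split between its members.

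Complex II, which oxidizes succinate and belongs to both the citric acid cycle and the respiratory chain, is encoded wholly in the nucleus. Its catalytic flavoprotein Sdha had 38082 counts in control and 26660 in DSS, a log2 ratio of -0.13 (-0.15 to -0.10). The iron-sulfur subunit Sdhb had 10155 and 9406 counts, a log2 ratio of 0.28 (0.24 to 0.32). The membrane anchors Sdhc and Sdhd lay between them, at 0.13 (17888 and 15000 counts) and 0.10 (20031 and 16400 counts), and both turned negative on total counts. The counting intervals of Sdha and Sdhb did not overlap, so within this complex of 4 the catalytic pair differed by more than counting error. Per kb, Sdhd was highest (227.4 CPM per kb in control, 243.7 in DSS) and Sdhc lowest (78.8 and 86.5).

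Complex III, the cytochrome bc1 complex, had a median log2 ratio of 0.06, which turned negative on total counts. The large core protein Uqcrc2 was lowest, with 26619 counts in control and 17072 in DSS and a log2 ratio of -0.25 (-0.28 to -0.22), followed by the small subunit Uqcr10 (5891 and 4348 counts, -0.05) and the other core protein, Uqcrc1 (22421 and 16637 counts, -0.04). The highest were the small subunits Uqcrb (7969 and 8401 counts, log2 ratio 0.46), Uqcrq (9885 and 9233 counts, 0.29) and Uqcrh (20474 and 17868 counts, 0.19). Uqcrfs1, the Rieske iron-sulfur protein that hands electrons to cytochrome c1, had 13061 and 10626 counts, a log2 ratio of 0.09. Uqcrh, the hinge protein, was the most abundant per kb, at 523.0 CPM per kb in control and 597.5 in DSS, and Uqcrq the least, at 90.8 and 111.0.

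Complex IV had the widest spread, with a median of 0.18 and a range from -3.49 to 1.66; its median turned negative on total counts and lay 0.23 above the median of all genes. Of its 15 subunits, 9 were above 0 and 6 below. Cox7c had 14539 counts in control and 15663 in DSS, a log2 ratio of 0.50 (0.46 to 0.53). Cox6b1, which faces the intermembrane space, had 19668 and 19625 counts (0.39). Cox4i1, the largest nuclear subunit of the complex and its most abundant per kb in control, had 29734 and 20516 counts, a log2 ratio of -0.15, and 557.7 and 503.7 CPM per kb.

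The members farthest from 0 were isoforms known from particular tissues. Cox7a1, the heart and skeletal muscle isoform of COX7A, had 539 counts in control and 1300 in DSS, a log2 ratio of 1.66 (1.51 to 1.81). Its ubiquitous counterpart Cox7a2 had 10174 and 9282 counts, a log2 ratio of 0.26 (0.22 to 0.30). Of the counts of this pair, Cox7a1 made up 5.03% (95% Clopper-Pearson interval 4.62 to 5.46) in control and 12.3% (11.7 to 12.9) in DSS. Of the 5 muscle markers only Myh7 was among the listed genes, and it was lower in DSS (309 and 146 counts). The other 4 were not listed, so they were not analysed here. The cell type behind the Cox7a1 counts was not tested. Cox7a2l, a COX7A relative that links complexes III and IV into supercomplexes, had 19583 and 11958 counts, a log2 ratio of -0.32 (-0.36 to -0.29).

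Cox6b2, known as the testis isoform of COX6B, had 235 counts in control and 16 in DSS, a log2 ratio of -3.49 (-4.32 to -2.76). It made up 1.18% of the COX6B counts in control and 0.0815% in DSS, so nearly all of the counts of this subunit were Cox6b1 in both libraries. Cox6a2, the muscle isoform of COX6A, had 41 and 9 counts, a log2 ratio of -1.80 (-3.03 to -0.74), against 13669 and 12890 counts of the ubiquitous Cox6a1 (0.30). At these counts the Cox6a2 value is imprecise, and the gene was the lowest of complex IV per kb (0.842 and 0.242 CPM per kb).

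Ndufa4, first assigned to complex I and now placed in complex IV, had 8273 counts in control and 4201 in DSS, a log2 ratio of -0.59 (-0.64 to -0.54). Its paralog Ndufa4l2, a gene known to be induced under hypoxia, had 155 and 59 counts, a log2 ratio of -1.005 (-1.46 to -0.56), which was above -1 with DESeq2 size factors (-0.999), upper quartile factors (-0.91), centring on the median of all genes (-0.95), a prior count of 2 (-0.98) and the deeper library thinned (-0.94). Both were lower in DSS in every scaling run, and Ndufa4l2 made up 1.84% (1.56 to 2.15) of the pair's counts in control and 1.38% (1.06 to 1.78) in DSS, intervals that overlap. Among 17 genes of the hypoxia and glycolytic switch list, which holds other genes of the hypoxia response, 9 were above 0 and 8 below, with a median of 0.02 that turned negative on total counts.

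**Figure D2:**
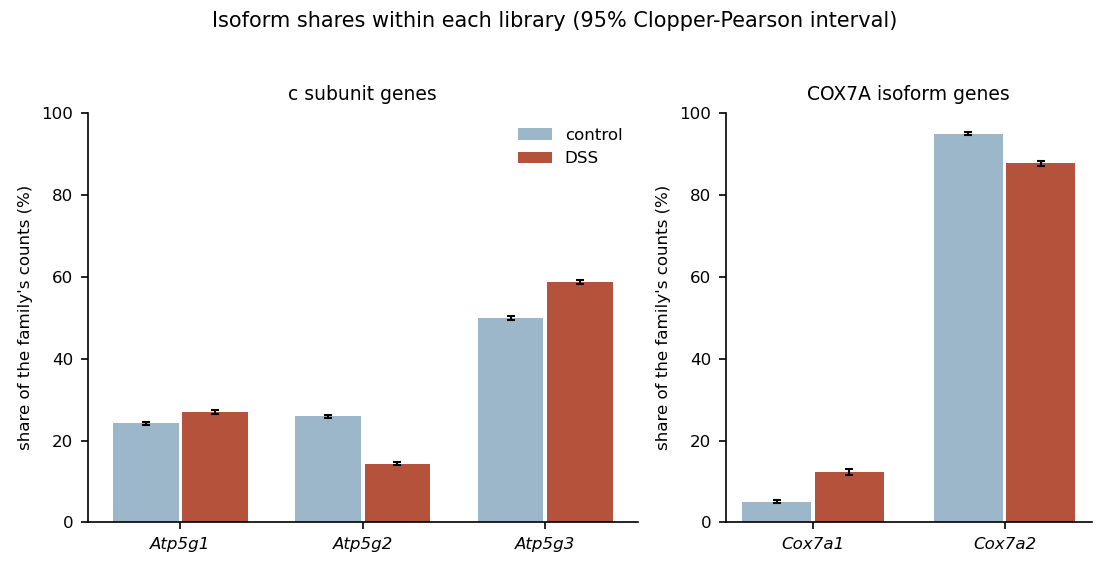
Share of the counts of an isoform family (vertical axis, percent) taken by each gene in the control and DSS libraries, for the 3 c subunit genes (left) and the COX7A pair (right); error bars are 95% Clopper-Pearson intervals for counting error. Atp5g2 takes 25.9% of c subunit counts in control and 14.3% in DSS, and Cox7a1 takes 5.03% and 12.3% of its pair.

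Complex V had a median log2 ratio of 0.12, which turned negative on total counts. Of its 17 nuclear subunits, 14 lay above the median of all genes. Their summed level went the other way, from 6037 CPM in control to 5854 in DSS, a log2 ratio of -0.044 (-0.051 to -0.038). The F1 head, the catalytic part of complex V, held 4025 and 3632 CPM of these sums. By median, its catalytic head was lower than its small membrane subunits. The 5 subunits of the F1 head had a median of -0.02, the 4 of the peripheral stalk 0.16 and the 5 of the membrane part 0.24. The head was split, with 2 above 0 and 3 below. It ranged from -0.24 to 0.17, and the membrane part from 0.09 to 0.60. Atp5b, the catalytic beta subunit, was the most abundant of all members per kb, at 926.4 CPM per kb in control and 814.7 in DSS, with 127031 and 85346 counts and a log2 ratio of -0.19 (-0.20 to -0.17). Atp5a1, the alpha subunit, had 102620 and 66189 counts, a log2 ratio of -0.24 (-0.26 to -0.23). The highest were Atp5k (subunit e; 4111 and 4763 counts, 0.60) and Atp5md (5999 and 6924 counts, 0.60), both small membrane subunits, and the stalk subunit Atp5h (12345 and 13252 counts, 0.49). Atp5j2 was the least abundant per kb, at 138.6 and 163.0 CPM per kb.

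The rotor of complex V is a ring of identical c subunits, for which the mouse has 3 nuclear genes. Atp5g2 had 11706 counts in control and 4533 in DSS, a log2 ratio of -0.98 (-1.03 to -0.93), and was the lowest subunit of the complex. Atp5g1 had 10910 and 8575 counts (0.04) and Atp5g3 had 22497 and 18598 counts (0.11), both turning negative on total counts. Of the counts of the 3 genes, Atp5g2 made up 25.9% (25.5 to 26.4) in control and 14.3% (13.9 to 14.7) in DSS, while Atp5g3 went from 49.9% to 58.7% and Atp5g1 from 24.2% to 27.0%. These shares do not depend on the scaling. The 3 genes encode the same mature protein, and their last 75 codons, from which it is translated, are printed to show how far reads of the genes can be told apart. The sequences are coding bases of GENCODE vM21 transcripts (GRCm38), 5′ to 3′, with capitals where the 3 genes differ:

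Atp5g1: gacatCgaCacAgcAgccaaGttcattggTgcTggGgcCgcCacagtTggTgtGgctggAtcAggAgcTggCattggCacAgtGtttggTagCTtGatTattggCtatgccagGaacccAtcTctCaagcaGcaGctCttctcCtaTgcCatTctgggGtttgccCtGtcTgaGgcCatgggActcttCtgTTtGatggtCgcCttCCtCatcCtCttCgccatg
Atp5g2: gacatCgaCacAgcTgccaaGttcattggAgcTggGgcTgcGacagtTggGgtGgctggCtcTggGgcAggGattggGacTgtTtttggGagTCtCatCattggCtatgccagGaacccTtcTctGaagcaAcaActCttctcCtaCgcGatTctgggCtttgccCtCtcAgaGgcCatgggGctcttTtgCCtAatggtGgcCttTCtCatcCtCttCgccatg
Atp5g3: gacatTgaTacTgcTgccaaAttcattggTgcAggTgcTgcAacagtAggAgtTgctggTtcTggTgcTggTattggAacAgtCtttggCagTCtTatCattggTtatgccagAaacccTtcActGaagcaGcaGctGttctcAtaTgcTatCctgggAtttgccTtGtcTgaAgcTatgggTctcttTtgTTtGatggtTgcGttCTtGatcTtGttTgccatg

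The 3 stretches of 225 bases translate to the same amino acids. They differ at 57 positions, of which 52 are the last base of a codon. Atp5g1 and Atp5g2 were 84.9% identical, Atp5g1 and Atp5g3 80.0%, and Atp5g2 and Atp5g3 78.7%, and the longest run of identical bases in any pair was 20, so any 50 bases within this stretch hold at least 1 base that differs between any of these genes. Processed copies are closer. Of the 50-base stretches of the Atp5g2 transcript, 87.4% were also found in Gm10175 and 57.5% in Gm10231. Gm10175 had 1204 counts in control and 499 in DSS, a log2 ratio of -0.88, and Gm10231 had 969 and 401 (-0.88). Added to Gm10175, Atp5g2 had a log2 ratio of -0.97. Atp5g1 shared 66.0% of its 50-base stretches with other genes, and 61.2% were found in Gm10039 (333 counts in control and 300 in DSS). Atp5g3 shared none. Counts of such copies were not added to the shares of the 3 genes above. How the counting treated reads that match several genes is not given in the sources used here.

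Across the structural subunits, 17 of 80 shared over 20% of their 50-base stretches with another gene entry and 43 shared none. For Atp5o, which is among the 17, the entry that shared most carried the same symbol. The median log2 ratio was 0.14 for the 17 and 0.05 for the others. The pseudogene symbols carried few counts apart from Ndufb1-ps: the other 7 ranged from Atp5l-ps2 (10 counts in control and 8 in DSS) to Atp5l2-ps (228 and 190), and no pseudogene symbol had a log2 ratio past 1 in either direction. Atp5l-ps2 was the member just inside the count minimum.

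Longer transcripts had lower ratios among the subunits. The 57 structural subunits with a transcript of at most 1000 nucleotides had a median log2 ratio of 0.16, and the 23 with a longer one -0.13. Over the 80 genes, Spearman's rho between length and log2 ratio was -0.42. Pearson's r between the log2 of length and the log2 ratio was -0.14. Both are given as a description across genes of the same 2 libraries. Over 14042 of all genes with a known length, rho was 0.02. RNA quality of the libraries is not given in the sources used here. The level per kb itself was similar in both libraries, with Pearson's r of 0.96 between log2 CPM per kb in control and DSS over the 80 subunits.

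Promoters of respiratory chain genes are known for binding sites of the transcription factor NRF1. The NRF1 core, GCGC followed by any base and TGCGC, was searched on both strands in the 250 bases before each RefSeq start (GRCm38.p6); a site that reads the same on both strands was counted once. It was found for 13 of the 66 structural subunits with a promoter entry (19.7%), compared with 7.92% of the 13002 genes of the count table with an entry and 4.23% of all 27025 promoters. By complex, these were 6 of 32 in complex I, 2 of 3 in II, 0 of 5 in III, 1 of 11 in IV and 4 of 15 in V. The ETS core CCGGAAG, which can overlap the NRF1 core by at most 1 base, was found for 18.2% of the subunits and 13.5% of the table's genes. As examples of the core, 4 windows of 30 bases with its palindromic form are printed 5′ to 3′ on the strand of the gene, with the core in capitals. They lie at chr5:108434430-108434459 (minus strand) for Atp5k, chr5:115349101-115349130 (minus strand) for Cox6a1, chr17:56717692-56717721 (plus strand) for Ndufa11 and chr15:102671070-102671099 (minus strand) for Atp5g2, all upstream of the annotated start:

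Atp5k: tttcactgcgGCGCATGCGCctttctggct
Cox6a1: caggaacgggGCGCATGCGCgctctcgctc
Ndufa11: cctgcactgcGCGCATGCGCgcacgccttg
Atp5g2: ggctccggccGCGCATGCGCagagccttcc

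These 4 genes had log2 ratios of 0.60, 0.30, 0.47 and -0.98. The 13 subunits with the core had a median log2 ratio of 0.25 (range -0.98 to 0.60), and the 53 without it had 0.09 (range -3.49 to 1.66). A match describes letters in this window, and binding was not measured.

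The subunits encoded in mitochondrial DNA differed from their nuclear partners in the same complexes. All 13 protein genes had a log2 ratio above 0 in every scaling run, from 0.27 for COX3 to 1.21 for ND4, with a median of 0.86; on total counts the lowest was 0.01. COX1, the catalytic subunit of complex IV, had 1930932 counts in control and 3011952 in DSS, a log2 ratio of 1.03. ND4, a proton-pumping subunit of complex I, had 190387 and 335815 counts. CYTB, the only such subunit of complex III, had 369946 and 437305 counts and a log2 ratio of 0.63, and ATP6, the proton channel subunit of complex V, had 273682 and 362798 counts and a log2 ratio of 0.80.

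Of the 80 nuclear subunits, 1 (Cox7a1) lay above the median of the mitochondrial genes and 21 lay above the lowest of them. The median log2 ratio of nuclear against mitochondrial subunits was -0.04 against 0.87 in complex I, 0.18 against 0.84 in complex IV and 0.12 against 0.88 in complex V. The mitochondrially encoded share of each complex's counts went from 82.5% to 89.97% in complex I, from 76.3% to 82.8% in complex III, from 94.1% to 96.4% in complex IV and from 45.5% to 60.6% in complex V. Together the 13 genes made up 6.69% of the control library and 10.4% of the DSS library. The libraries were made with a poly(A) kit, and both mitochondrial ribosomal RNAs, mt-Rnr1 (log2 ratio 1.84) and mt-Rnr2 (1.80), were higher in DSS as well.

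**Figure D3:**
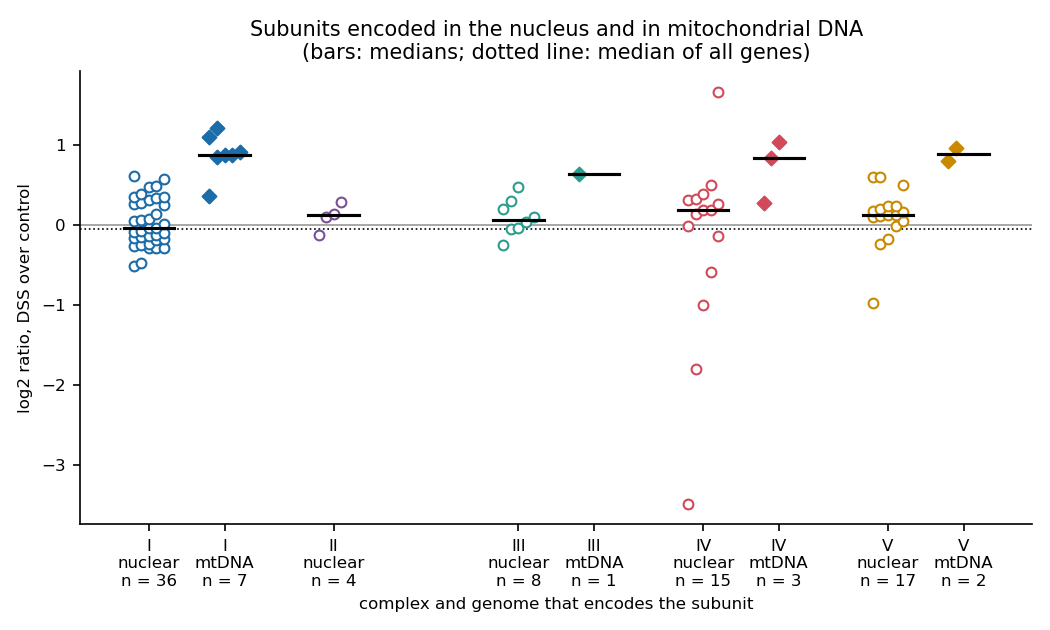
Log2 ratio of DSS over control (vertical axis) for subunits encoded in the nucleus (open circles) and in mitochondrial DNA (filled diamonds) of each complex; each point is a gene, thick bars are medians and the dotted line is the median of all genes. The mitochondrial medians lie between 0.63 and 0.88 and the nuclear ones between -0.04 and 0.18; on total counts every point lies 0.26 lower.

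The assembly factors of complex I named Ndufaf were lower than the subunits they assemble. Of 8, 6 were below 0, with a median log2 ratio of -0.85; on total counts all 8 were below 0. Ndufaf5, which hydroxylates an arginine of NDUFS7, had 839 counts in control and 260 in DSS, a log2 ratio of -1.30 (-1.51 to -1.10). Ndufaf6 had 882 and 286 counts, a log2 ratio of -1.24 (-1.43 to -1.04). The next 4 lay close together, with Ndufaf1, a factor of the membrane arm's assembly, at -0.90 (1412 and 579 counts), Ndufaf2 at -0.85 (535 and 227), Ndufaf7, a protein arginine methyltransferase, at -0.85 (1157 and 491), and Ndufaf4 at -0.78 (2026 and 900). Ndufaf3 (846 and 768 counts, 0.25) and Ndufaf8 (843 and 692 counts, 0.10) lay above 0 and turned negative on total counts. The highest of these 6, Ndufaf4, was still below the lowest complex I subunit, Ndufb11.

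A further 51 assembly factors outside the symbol rule had at least 10 counts, which makes 59 with the Ndufaf genes. Of the 59, 38 were below 0 and 21 above, with a median of -0.16, where 8963 of all 17235 genes were below 0. At -1 or less were 7 of the 59 and at 1 or more was 1, beside 20.2% and 19.3% of all genes. Besides Ndufaf5 and Ndufaf6, those at -1 or less were Tmem70, an ATP synthase factor (3224 counts in control and 917 in DSS, log2 ratio -1.43), Lrpprc, which stabilizes mitochondrial mRNAs (11315 and 3333, -1.37), Dmac1 (1477 and 455, -1.31), Bcs1l, which inserts the Rieske protein into complex III (1089 and 378, -1.14), and Tmem186 (1429 and 528, -1.05). Cox16, a factor of complex IV assembly, was the only factor at 1 or more, with 1087 and 2755 counts (1.73), followed by the copper chaperone Cox17 (3093 and 3844, 0.70). By complex, the medians were -0.28 for 12 other complex I factors, -0.08 for 4 of complex II, -0.50 for 6 of complex III, -0.03 for 24 of complex IV and -0.31 for 5 of complex V.

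The mobile carriers and their synthesis were split. Of 15 genes for cytochrome c, cytochrome c1 and coenzyme Q synthesis, 10 were below 0 and 5 above, with a median of -0.28. Cycs, cytochrome c itself, had 9861 counts in control and 15181 in DSS, a log2 ratio of 1.01, and Coq10b, a coenzyme Q-binding protein, had 719 and 1397 (1.35). Coq8a, an atypical kinase needed for coenzyme Q synthesis, had 5658 and 1892 counts (-1.19), and Pdss1, which makes its isoprenoid tail, had 2756 and 1034 (-1.03). Cyc1, the cytochrome c1 subunit of complex III, had 17294 and 10736 counts, a log2 ratio of -0.30.

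Genes that supply or regulate the respiratory chain spread more widely than its subunits. Among 24 genes of the citric acid cycle and pyruvate dehydrogenase, 11 were above 0 and 13 below (median -0.23); Pdk4, a kinase that inhibits pyruvate dehydrogenase, had 929 counts in control and 1777 in DSS (1.32) and Ogdh 23251 and 42897 (1.27), while Idh2 had 15623 and 4602 (-1.37) and Idh3a 13029 and 4393 (-1.18). At 1 or more were 2 of the 24 and at -1 or less were 2, beside 19.3% and 20.2% of all genes. Of 21 regulators of mitochondrial biogenesis, 16 were below 0, with a median of -0.68, and 5 were at -1 or less, where 20.2% of all genes lay. The lowest were the coactivator Pprc1 (5041 and 846 counts, -2.19) and Myc (5101 and 994, -1.97). The highest were the coactivator Ppargc1a (1520 and 2263 counts, 0.96) and the nuclear receptor Esrra (6350 and 7705, 0.67). Tfam, a packaging protein and transcription factor of mitochondrial DNA, had 4331 and 1624 counts, a log2 ratio of -1.03, beside the higher mitochondrial transcripts. Tfam was named after its value was seen.

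The 12 genes of the MICOS complex and cristae shaping had a median of -0.08, with 5 above 0 and 7 below. Chchd6 was lowest (385 counts in control and 61 in DSS, log2 ratio -2.27), then the prohibitin Phb (12240 and 4398, -1.09), and the protease Oma1 was highest (1213 and 1629, 0.81), followed by Micos10 (5417 and 5938, 0.52). Among 9 antioxidant and uncoupling genes of mitochondria the median was 0.02, turning negative on total counts. At 1 or more, where 19.3% of all genes lay, were 3 of the 9. These were the inner membrane carrier Ucp2 (27198 and 78545 counts, 1.92), Gpx4, which reduces lipid peroxides (12466 and 33476, 1.81), and the peroxiredoxin Prdx5 (8059 and 16671, 1.44). The lowest were thioredoxin Txn2 (10665 and 4981, -0.71) and the peroxiredoxin Prdx3 (6981 and 3600, -0.57). In the hypoxia and glycolytic switch list, Pfkfb3 (5857 and 8130, 0.86) and Egln3 (36225 and 38314, 0.47) were highest and Lonp1 (21474 and 6565, -1.32) and Ddit4 (7674 and 2537, -1.21) lowest.

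**Figure D4:**
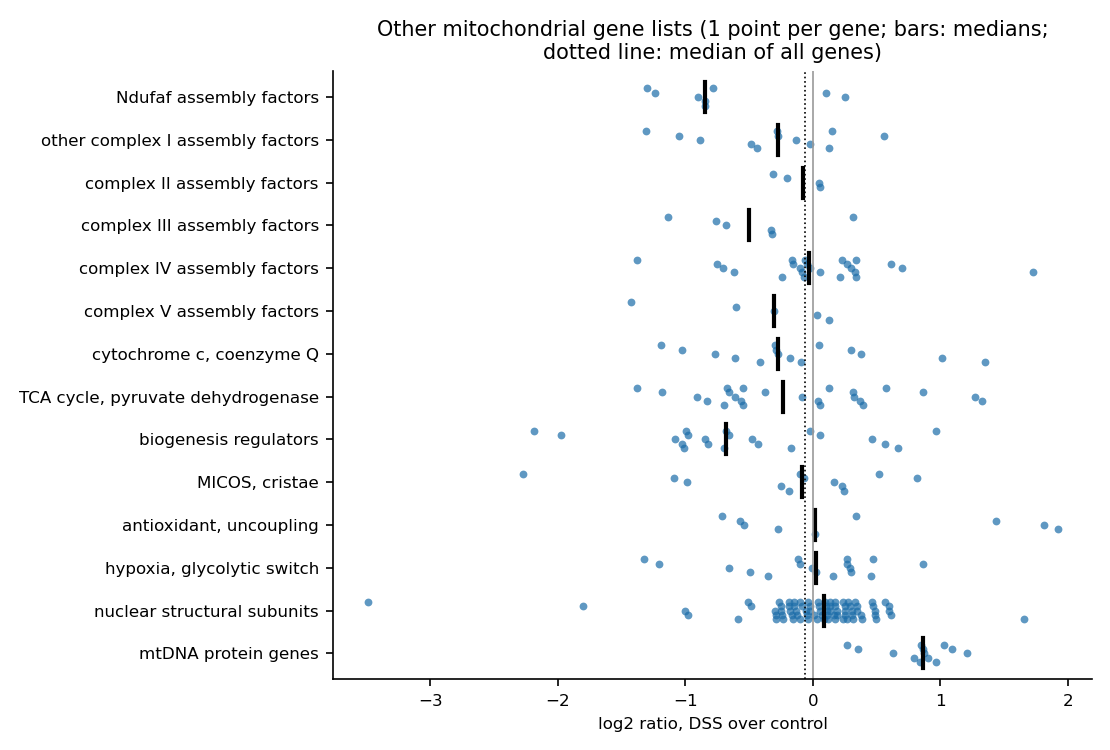
Log2 ratio of DSS over control (horizontal axis) for genes of the assembly factor, carrier, supply and regulator lists, with the 80 nuclear structural subunits and the 13 mitochondrial protein genes below them; each point is a gene with at least 10 counts, thick bars are medians and the dotted line is the median of all genes. The subunits center on 0.09, the Ndufaf factors on -0.85, the biogenesis regulators on -0.68 and the mitochondrial genes on 0.86; on total counts every point lies 0.26 lower.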

How the data were processed

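Total RNA of 2 mIO cultures, control and DSS, was sequenced with a stranded poly(A) kit. The authors deposited raw counts per gene without normalization; the single-sample files, named as FPKM, hold the same counts for all 19294 genes. HISAT2 and StringTie are named in the submitters' processing notes without versions, and the genome build, annotation and treatment of reads matching several genes are not given in the sources used here. No listed gene has a count of 0 in either library, and genes absent from the table were not analysed here.

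Counts were scaled with TMM factors (1.09 for control, 0.915 for DSS) in edgeR 4.0.16 under R 4.3.3, and CPM are counts per 1000000 counts of the scaled library total. Log2 ratios and shares carry exact Clopper-Pearson 95% intervals, which cover counting error only. The median interval of a member reached 0.05 to either side. With 1 library per condition no test was run. The code for ratios and intervals was checked on simulated counts with counting error alone and few changed genes. Those counts held no variation between cultures, so the check does not cover it.

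The members and gene lists were chosen with earlier results of these data known, and the grouping of pseudogene symbols and copies was made after the files were seen. Named members were the 3 highest and 3 lowest structural subunits per complex with at least 50 counts in either library, members past a log2 ratio of 1, isoform groups, and the most and least abundant per kb; for other lists, the 2 highest and 2 lowest. Other named genes were chosen after their values were seen. The values of 1 gene under this rule are not reported here. Transcript lengths, coding sequences and shared 50-base stretches came from GENCODE vM21, taking the shortest linked transcript, and promoters from RefSeq (GRCm38.p6).

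Other settings replaced the TMM factors by total counts, upper quartile factors or DESeq2 1.42.0 size factors, thinned the deeper library, added a prior count of 2, changed the count minimum or kept structural subunits alone. After seeing the data, 2 more were added, with ratios centred on the median of all genes or TMM factors computed without mitochondrially encoded genes. Python 3.11.15, numpy 2.4.6, scipy 1.17.1, pandas 2.3.3 and matplotlib 3.10.9 were used.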

Additional observations from a re-analysis of the deposited data

How the results depend on the processing

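Scaling moves all genes together. The median log2 ratio of the 99 members was 0.09, -0.17 on total counts, 0.18 with upper quartile factors and 0.15 centred on the median of all genes. The number of members at -1 or less was 5, rising to 10 on total counts, where Ndufaf1, Ndufaf2, Ndufaf4, Ndufaf7 and Atp5g2 joined them, and it was 3 among structural subunits alone, a set without the Ndufaf genes. It was 4 with DESeq2 size factors, upper quartile factors, a prior count of 2, the thinned library and centring, all without Ndufa4l2, and 4 with a minimum of 10 counts in both libraries or of 50 in either, both without Cox6a2. Cox7a1 was the only member at 1 or more in every setting. Neither the count minimums nor TMM factors without mitochondrial genes moved the median of the members by more than the typical counting interval of a member.

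No paired analysis was possible because each condition had 1 library, and for the same reason no library was left out. Depth limits the members with few counts, such as Cox6a2, Cox6b2 and Ndufa4l2, whose intervals are wide. Variation between cultures is unknown.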
